A study of Homo sapiens with 12 samples.

Results

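The NRF2 antioxidant genes described here are 10 genes chosen by name: the transcription factor gene NFE2L2, which encodes NRF2, its negative regulator KEAP1, and 8 genes known as NRF2 targets, namely NQO1, HMOX1, GCLM, GCLC, TXNRD1, SLC7A11, SRXN1 and OSGIN1. They are 10 of the 23621 gene rows in the deposited tables, and all 10 were among the 14251 active genes, those whose FPKM exceeded 1 in at least 1 library of 12. FPKM counts sequenced fragments per length of transcript and per depth of library. The libraries came from KURAMOCHI (Ku) and COV362 (Cov), established human ovarian cancer cell lines, labelled as untransduced controls in every group. Ku cells were grown in RPMI and Cov cells in DMEM, both with fetal bovine serum, penicillin and streptomycin. Each line was treated for 6 hr with DMSO, the vehicle, or with THZ1 at 50 nM or 250 nM, with 2 libraries per condition that the series describes as biological duplicates. THZ1 binds covalently to CDK7, a kinase that phosphorylates RNA polymerase II, with CDK12 and CDK13 as further known targets.

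NRF2 is a basic leucine zipper protein. In unstressed cells KEAP1 holds it in the cytoplasm and presents it to a CUL3 ubiquitin ligase, so that it is degraded soon after it is made. Oxidants and electrophiles modify cysteines of KEAP1, NRF2 then accumulates, pairs with a small Maf protein and binds antioxidant response elements beside genes for glutathione synthesis, thioredoxin recycling, quinone reduction and heme breakdown. The control is largely on the protein, which was not measured here, and the values below are mRNA levels only.

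The promoters of the member genes were searched for the core of that element, because it is the sequence through which the proteins of this pathway are known to act. RefSeq promoter windows on GRCh38.p14, from 250 bases before a transcription start to 50 after it, were matched for 8 of the 10 genes, all but HMOX1 and SLC7A11. The core was written as TGACNNNGC and searched on both strands. It was found in the windows of 3 of these 8 genes (KEAP1, GCLM and TXNRD1), or 37.5%, beside 16.1% of 27305 genes with a window and 19.3% of the 10050 active genes with one. A match is a description of the letters only. Shown here are the 150 bases before the start for GCLM and for the second TXNRD1 start, each with the matched core in capitals as read on the printed strand, and for NQO1, a much used NRF2 target in whose window these letters did not occur. TXNRD1 lies at chr12:104286882-104287031 on the plus strand, GCLM at chr1:93909431-93909580 on the minus strand and NQO1 at chr16:69726561-69726710 on the minus strand.
TXNRD1: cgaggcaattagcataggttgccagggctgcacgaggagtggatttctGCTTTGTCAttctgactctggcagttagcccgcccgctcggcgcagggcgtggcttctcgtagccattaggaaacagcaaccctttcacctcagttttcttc
GCLM: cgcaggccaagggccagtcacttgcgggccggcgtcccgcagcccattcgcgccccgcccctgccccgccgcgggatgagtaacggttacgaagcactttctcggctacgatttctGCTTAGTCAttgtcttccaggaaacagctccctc
NQO1: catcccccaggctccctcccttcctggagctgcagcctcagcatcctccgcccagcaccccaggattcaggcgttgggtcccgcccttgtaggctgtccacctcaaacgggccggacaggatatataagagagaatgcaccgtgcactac
Both capitalised stretches, GCTTTGTCA in TXNRD1 and GCTTAGTCA in GCLM, are the core on the other strand. The 2 KEAP1 matches lay at its second start, 54 and 31 bases before it.

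The deposited FPKM had been normalized to ERCC spike-in RNAs, synthetic transcripts that were mixed into RNA normalized by cell count, so a lower value stands for less of the transcript relative to the spike-ins. In such bulk samples, fewer cells expressing a gene and less RNA per cell cannot be told apart. Read counts are not in the tables so library depth is unknown. Summed over all genes, FPKM came to between 1227780 and 1686567 in the 4 DMSO libraries and to between 607016 and 764273 in the 4 libraries at 250 nM. Pearson's r between replicates over the active genes ran from 0.968 to 0.983. The median deviation of a library's ERCC rows above 1 FPKM from the DMSO mean of its line lay between -0.0058 and 0.0451 on the log2 scale. The values had been normalized to these same spike-ins, so this small deviation is no separate check. Of 8 markers of serous ovarian carcinoma lineage, 7 had a mean above 1 FPKM in DMSO in each line; the mean of MUC16 was 0.166 in Ku cells and that of WT1 was 0.653 in Cov cells. Of the markers of leukocytes 1 of 4 exceeded 1 FPKM with DMSO in each line, of those of fibroblasts 1 of 4 in Ku and 2 of 4 in Cov cells, and of those of endothelium 2 of 3 and 1 of 3. The markers above 1 FPKM were CD68 (DMSO means of 2.31 in Ku and 4.12 in Cov cells), COL1A1 (2.53 and 3.17), COL1A2 in Cov cells (42.2), CDH5 (8.23 and 7.75) and VWF in Ku cells (2.66), while PTPRC, CD3E, DCN, LUM and PECAM1 had DMSO means between 0.106 and 0.338 FPKM. The summed FPKM of these lists was lower at 250 nM, as that of most genes: the leukocyte sum was 2.40 to 4.93 with DMSO and 1.81 to 2.19 at 250 nM over both lines, the endothelial sum 8.43 to 11.8 and 3.44 to 6.92, and the fibroblast sum 2.83 to 2.97 and 1.18 to 1.35 in Ku and 43.7 to 47.5 and 21.2 to 24.7 in Cov cells. Their part in the results was not tested.

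After THZ1 the mRNA of NRF2, of its regulator and of its target genes was lower in both lines on the deposited spike-in scale. With libraries scaled to an equal median, however, NQO1 was called higher at 250 nM in both, beside 26.9% of active genes in Ku and 26.4% in Cov cells. TXNRD1 then had positive values that were not called. At 250 nM for 6 hr, 9 of the 10 genes were called lower in Ku cells, beside a background of 68.6% of active genes, and 10 of 10 in Cov cells, beside 84%. The remaining gene in Ku cells, NQO1, lay below both controls in both libraries without passing the test. The median log2 fold change of the 10 was -2.20 in Ku and -2.29 in Cov cells, beside -1.11 and -1.31 over all active genes. OSGIN1, KEAP1 and NFE2L2 were among the most reduced in both lines, whereas NQO1 kept 61.9% of its DMSO level in Ku cells and 49.7% in Cov cells. Equal median scaling gives every library the same median FPKM. It left the median log2 fold change of active genes at 250 nM above that of DMSO, at 0.29 in Ku and 0.31 in Cov cells. With it 4 of the 10 genes were still called lower at 250 nM in Ku and 5 in Cov cells, beside 11.6% and 11.3% of active genes. With median-of-ratios scaling the medians were 0.00 and 0.01.

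A log2 fold change here is the difference between the group means of log2(FPKM + 1), a scale that understates the change of genes with low values. They were tested with limma over the 6 libraries of a line, and a gene was called at a Benjamini-Hochberg adjusted p under 0.001 over all active genes together with a log2 fold change of more than 0.5 in size. An exact permutation test of 1 gene in 2 libraries against 2 cannot go below p = 0.33, so the calls rest on the spread that limma shares across genes and across the 3 groups of a line. In Ku cells at 50 nM, 3 of the 10 genes were called lower (KEAP1, SRXN1 and OSGIN1), beside a background of 11.3% of active genes. That count was 0 when any 1 of the 6 Ku libraries was left out, when only the 50 nM and DMSO libraries were fitted, and when no minimum FPKM was set. Calls over all genes dwindled in the same settings, from 1607 to between 6 and 131 without 1 library, to 9 with only those libraries and to 3 with no minimum. In Ku cells at 250 nM, 9 of 10 were called lower, all but NQO1, beside 68.6% of active genes. In Cov cells, 7 of 10 were called lower at 50 nM, near the background of 70.5%, and 10 of 10 at 250 nM beside 84% of active genes. NQO1, HMOX1 and GCLM were the 3 not called in Cov cells at 50 nM. No member was called higher in any of these comparisons, and none had a positive log2 fold change at an unadjusted limma p under 0.05, so both counts were 0; the background of genes called higher was 0.0842% and 0.0491% in Ku and 0.0772% and 0.105% in Cov cells at 50 nM and 250 nM. Between the doses, 8 genes of the 10 were called lower at 250 nM than at 50 nM in Ku cells, where the background was 36%, and 8 in Cov cells, where it was 24.4%; 0 were called higher, beside 0.0421% and 0.0842%, and all 10 had both libraries at 250 nM below both at 50 nM, as did 87.7% and 75.6% of active genes. Fewer members were called in Ku cells without 50 nM replicate 1 or without either 250 nM library, and in Cov cells without either 250 nM library. These fits leave 1 library in a group, and the backgrounds given are those of the full fit.

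The 2 libraries of a dose lay below both DMSO libraries for 9 of the 10 genes in Ku cells at 50 nM, where NQO1 overlapped, and for 10 of 10 in the other comparisons with DMSO. The background is large here too, at 75.8% and 95.9% of active genes in Ku cells and 95.7% and 95.6% in Cov cells at 50 nM and 250 nM.

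**Figure D1:**
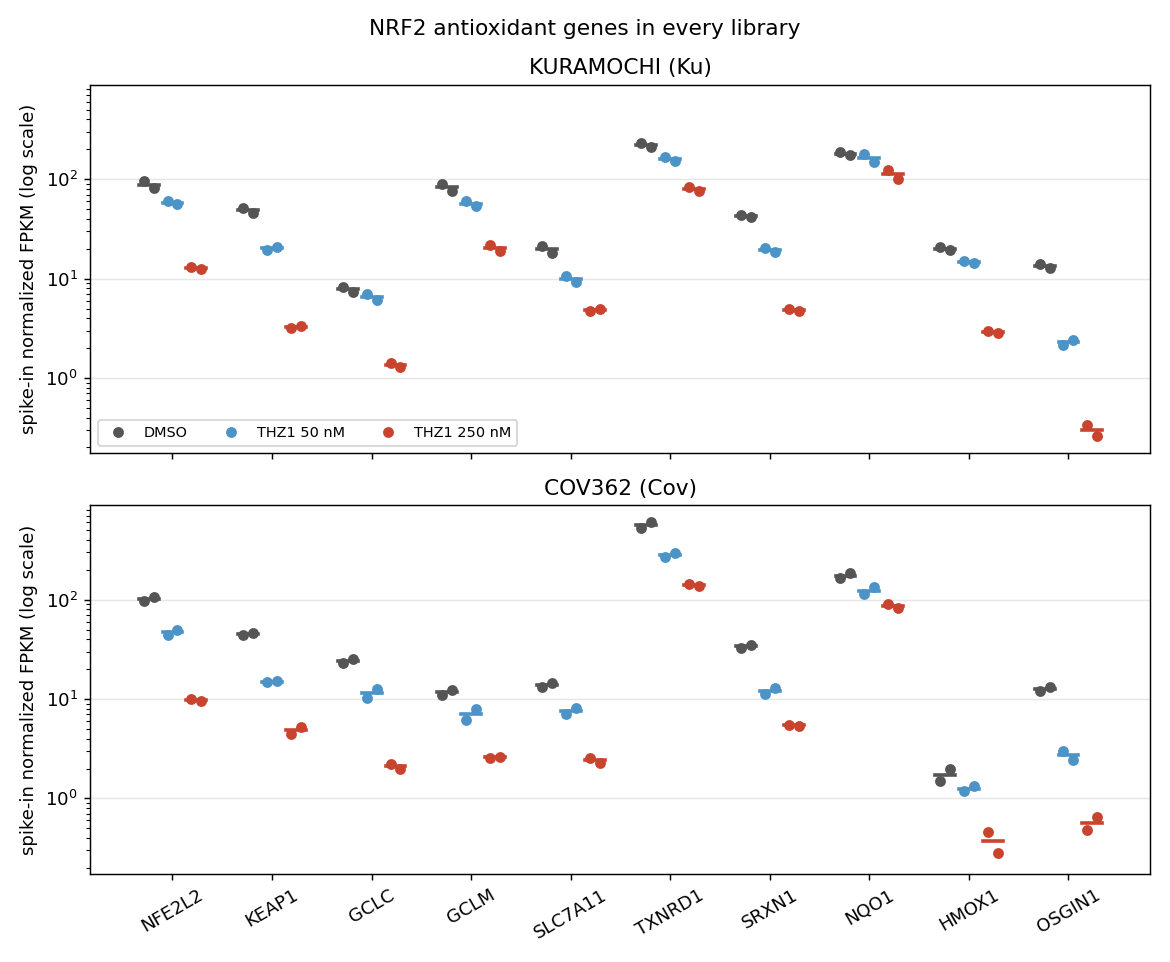
FPKM (log scale) of the 10 NRF2 antioxidant genes in each library of Ku and Cov cells after 6 hr of DMSO, THZ1 at 50 nM or THZ1 at 250 nM; each point is 1 library and each bar the mean of 2. At 250 nM every gene lies below both DMSO libraries of its line, with NQO1 nearest to them, at 61.9% of its DMSO mean in Ku and 49.7% in Cov cells. Under equal median scaling NQO1 is called higher in both lines, as are 26.9% and 26.4% of active genes. TXNRD1 then has positive values that are not called.

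NFE2L2 (ENSG00000116044, GRCh37 chr2:178083395-178257484, minus strand) was among the more abundant of these transcripts before treatment. In Ku cells its FPKM was 95.5 and 81.5 with DMSO, 60.4 and 56.0 at 50 nM, and 13.1 and 12.6 at 250 nM. The Cov libraries had 96.6 and 105.9 with DMSO, 44.3 and 50.1 at 50 nM, and 9.97 and 9.54 at 250 nM. The levels at the 3 conditions did not overlap in either line. At 250 nM NFE2L2 was at 14.5% of its DMSO mean in Ku cells and 9.64% in Cov cells. The log2 fold change in Ku cells was -2.69 (SE 0.0944, limma adjusted p = 7.03e-06), and 6.16% of active genes had a more negative one. The Cov value was -3.25 (SE 0.096, limma adjusted p = 8.16e-07), and 1.82% of active genes lay below it. At 50 nM the log2 fold change was -0.59 in Ku cells, not called (limma adjusted p = 0.0034), and -1.09 in Cov cells (limma adjusted p = 5.19e-05); under equal median scaling these were 0.10 and 0.12. HNRNPA3, which is transcribed from the opposite strand, shares 3509 of the 14975 annotated exonic bases of NFE2L2 and had 79.4 to 220 FPKM, and the strand setting of the authors' counting is not given in the sources used here, so reads of the overlap may count for either gene.

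KEAP1 (ENSG00000079999, chr19:10596801-10614234, minus strand), the adaptor that marks NRF2 for degradation, fell at both doses as well. Ku libraries held 51.7 and 45.5 FPKM with DMSO, 19.3 and 21.0 at 50 nM, and 3.17 and 3.36 at 250 nM. The Cov values were 44.3 and 46.1, then 14.7 and 15.04, and then 4.45 and 5.21. Both doses lay clear of DMSO and of each other. The residual level at 250 nM was 6.72% of DMSO in Ku and 10.7% in Cov cells. Its log2 fold change at 250 nM was -3.54 in Ku cells (SE 0.102, limma adjusted p = 6.52e-06), the most negative of the 10 genes in that line with this pseudocount, and -2.99 in Cov cells (SE 0.0972, limma adjusted p = 8.16e-07). At 50 nM it was -1.23 in Ku cells (limma adjusted p = 0.000482) and -1.54 in Cov cells (limma adjusted p = 2.25e-05).

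Among the glutathione genes, GCLC (ENSG00000001084, chr6:53362139-53481768, minus strand) encodes the catalytic subunit of glutamate-cysteine ligase, the rate-limiting enzyme of glutathione synthesis. Its FPKM in Ku cells was 8.25 and 7.36 with DMSO, 6.92 and 6.08 at 50 nM, and 1.43 and 1.29 at 250 nM. The Cov libraries, where the DMSO level was higher, had 22.9 and 25.3, then 10.3 and 12.7, and then 2.23 and 1.99. The Ku libraries at 50 nM lay close below those with DMSO, while the Cov libraries were well apart. GCLC at 250 nM was at 17.4% of DMSO in Ku and 8.76% in Cov cells, with log2 fold changes of -1.90 (SE 0.134, limma adjusted p = 3.58e-05) and -3.01 (SE 0.125, limma adjusted p = 1.02e-06). At 50 nM they were -0.23 (limma adjusted p = 0.186), not called, and -1.01 (limma adjusted p = 2e-04); the Cov call at 50 nM was lost without either Cov DMSO library, where the limma adjusted p was 0.0013 and 0.00265. Equal median scaling ended the Ku call at 250 nM, at -0.42 (limma adjusted p = 0.0113), while the Cov value was -1.25 and still called; with median-of-ratios scaling both were called, at -0.82 in Ku (limma adjusted p = 0.000637) and -1.64 in Cov cells (limma adjusted p = 8.22e-05).

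GCLM (ENSG00000023909, chr1:94350755-94375012, minus strand) encodes the modifier subunit of the same ligase, which raises the activity of the catalytic one. Ku cells held 90.2 and 76.2 FPKM with DMSO, 60.1 and 53.6 at 50 nM, and 21.6 and 19.1 at 250 nM. Cov cells held 10.96 and 12.3, then 6.19 and 7.90, and then 2.54 and 2.63. No library with THZ1 reached a DMSO level of its line. At 250 nM GCLM was at 24.4% of DMSO in Ku and 22.2% in Cov cells, with log2 fold changes of -1.98 (SE 0.113, limma adjusted p = 1.86e-05) and -1.82 (SE 0.13, limma adjusted p = 7.21e-06). At 50 nM it was not called in either line, with log2 fold changes of -0.54 (limma adjusted p = 0.00917) and -0.66 (limma adjusted p = 0.00203). Under equal median scaling the values at 250 nM were -0.05 in Ku (limma adjusted p = 0.708) and -0.08 in Cov cells (limma adjusted p = 0.429), and neither call held, nor did they with median-of-ratios scaling, at -0.56 (limma adjusted p = 0.00218) and -0.46 (limma adjusted p = 0.00643).

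SLC7A11 (ENSG00000151012, chr4:139085251-139163503, minus strand) encodes the light chain of the cystine and glutamate exchanger that supplies cysteine for glutathione. The Ku levels were 21.5 and 18.0 FPKM with DMSO, 10.7 and 9.31 at 50 nM, and 4.71 and 4.98 at 250 nM. The Cov levels were 13.3 and 14.7, then 7.01 and 8.08, and then 2.57 and 2.26. The steps from DMSO to 50 nM and on to 250 nM were of about the same log2 size in Ku cells, -0.91 each. At 250 nM the gene was at 24.6% and 17.3% of DMSO, with log2 fold changes of -1.82 in Ku (SE 0.129, limma adjusted p = 3.69e-05) and -2.13 in Cov cells (SE 0.114, limma adjusted p = 2.02e-06). The 50 nM value in Ku cells was not called (limma adjusted p = 0.00226), and that in Cov cells, -0.81, was (limma adjusted p = 0.000362), though not without either Cov DMSO library, where the limma adjusted p was 0.00206 and 0.00459. Neither call at 250 nM held under equal median scaling, with -0.03 in Ku (limma adjusted p = 0.675) and -0.39 in Cov cells (limma adjusted p = 0.00462), while median-of-ratios scaling kept the Cov call at -0.78 (limma adjusted p = 0.000492) but not the Ku call at -0.51 (limma adjusted p = 0.00122). The antisense transcript SLC7A11-AS1, which shares 865 of the 9645 exonic bases of the gene, had at most 0.384 FPKM.

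Of the thioredoxin genes, TXNRD1 (ENSG00000198431, chr12:104609557-104744085, plus strand) encodes the cytosolic selenoprotein that reduces thioredoxin with NADPH. Before treatment it was the most abundant of the 10 transcripts per length in both lines. Ku libraries had 230.2 and 213 FPKM with DMSO, 168 and 153 at 50 nM, and 84.0 and 76.9 at 250 nM. Cov libraries had 528 and 603, then 269 and 298, and then 143 and 137. The conditions did not overlap in either line. The 250 nM level was 36.3% of DMSO in Ku and 24.8% in Cov cells, with log2 fold changes of -1.45 (SE 0.079, limma adjusted p = 1.65e-05) and -2 (SE 0.1, limma adjusted p = 1.61e-06), which under equal median scaling became 0.52 (limma adjusted p = 0.00613) and 0.07 (limma adjusted p = 0.284), not called in either line, and with median-of-ratios scaling 0 and -0.39 (limma adjusted p = 0.975 and 0.000906), also not called. At 50 nM it was not called in Ku cells, at -0.46 (limma adjusted p = 0.00437), and fell by 0.99 on the log2 scale in Cov cells (limma adjusted p = 8.42e-05).

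SRXN1 (ENSG00000271303, chr20:627259-633844, minus strand) encodes sulfiredoxin, which repairs overoxidized peroxiredoxins. It had 43.7 and 41.6 FPKM in Ku cells with DMSO, 20.1 and 18.4 at 50 nM, and 4.91 and 4.69 at 250 nM. In Cov cells it had 32.8 and 35.1, then 11.3 and 13.0, and then 5.43 and 5.41. Each dose lay clear of the one before it. The remaining share at 250 nM was 11.2% in Ku and 16.0% in Cov cells, with log2 fold changes of -2.91 (SE 0.0891, limma adjusted p = 6.66e-06) and -2.44 (SE 0.1, limma adjusted p = 9.96e-07). At 50 nM they were -1.11 (limma adjusted p = 0.000443) and -1.42 (limma adjusted p = 2.73e-05). SRXN1 thus passed the test at both doses in both lines, as did KEAP1 and OSGIN1; the Ku calls at 50 nM carry the limit given above.

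NQO1 (ENSG00000181019, chr16:69740899-69760571, minus strand) encodes a quinone reductase that is widely used as a readout of NRF2, and it was the least reduced member in Ku cells. Its FPKM there was 186 and 176 with DMSO, 178 and 148 at 50 nM, and 124 and 101 at 250 nM. The Cov levels ran from 163 and 186 with DMSO, through 114 and 133, to 90.6 and 83.1. The Ku libraries at 50 nM overlapped those with DMSO, and the libraries at 250 nM lay below both. At 250 nM the log2 fold change was -0.69 in Ku cells (SE 0.129), which missed the threshold with a limma adjusted p of 0.00239, and -1 in Cov cells (SE 0.11, limma adjusted p = 6.92e-05). Relative to the median of all active genes NQO1 was 0.41 higher in Ku and 0.31 higher in Cov cells on the log2 scale, and 72.7% and 67.6% of active genes had a more negative change. With a pseudocount of 0.1 NQO1 was 0.69 and 0.55 above that median. With equal median scaling the log2 fold change of NQO1 at 250 nM was 1.28 in Ku and 1.06 in Cov cells, called higher in both (limma adjusted p = 0.000756 and 9.22e-05). That scaling called 26.9% and 26.4% of all active genes higher. With median-of-ratios scaling NQO1 was at 0.76 and 0.60, called higher in Cov cells (limma adjusted p = 0.0038 and 0.000541), beside 11.1% and 8.57% of active genes.

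HMOX1 (ENSG00000100292, chr22:35776354-35790207, plus strand) encodes heme oxygenase 1, which breaks heme down to biliverdin, iron and carbon monoxide. Ku cells expressed it at 20.7 and 19.2 FPKM with DMSO, 15.1 and 14.5 at 50 nM, and 2.97 and 2.82 at 250 nM. Cov cells had 1.49 and 1.97, then 1.19 and 1.33, and then 0.454 and 0.283. The gene was low in Cov cells in every condition, and its values at 250 nM there came within a few times of the low value of 0.0783 to 0.119 FPKM that many unexpressed genes share in these tables. At 250 nM it stood at 14.5% of DMSO in the Ku line, and its log2 fold change was -2.43 (SE 0.101, limma adjusted p = 9.26e-06). In Cov cells the level was 21.3% of DMSO and the log2 fold change was -0.99 (SE 0.113, limma adjusted p = 8.14e-05). The pseudocount of 1 compresses that change, since a pseudocount of 0.1 gave -1.98 in Cov cells and -2.74 in Ku cells. Under equal median scaling HMOX1 was at -0.71 in Ku (limma adjusted p = 0.00109) and -0.07 in Cov cells (limma adjusted p = 0.57), called in neither, and median-of-ratios scaling kept the Ku call at -1.17 (limma adjusted p = 0.000129) but not the Cov call at -0.27 (limma adjusted p = 0.0614). It was not called at 50 nM in either line on the deposited scale (limma adjusted p = 0.0168 and 0.0534).

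OSGIN1 (ENSG00000140961, chr16:83964916-83999937, plus strand), an oxidative stress induced growth inhibitor gene, had lost the most of its DMSO level of all 10 at either dose. It had 14.0 and 12.7 FPKM in Ku cells with DMSO, 2.15 and 2.42 at 50 nM, and 0.335 and 0.258 at 250 nM. The Cov libraries had 12.2 and 13.3, then 3.02 and 2.45, and then 0.487 and 0.653. All libraries at 50 nM already lay far below DMSO. At 250 nM 2.22% of the DMSO mean remained in Ku cells and 4.48% in Cov cells, levels that came within a few times of the shared low value of 0.0783 to 0.105 FPKM in those libraries. The log2 fold change at 50 nM was -2.13 in Ku (SE 0.124, limma adjusted p = 0.000253) and -1.88 in Cov cells (SE 0.119, limma adjusted p = 2.25e-05), and only 1.25% and 2.83% of active genes had a more negative one. At 250 nM it was -3.47 (SE 0.124, limma adjusted p = 7.34e-06) and -3.13 (SE 0.119, limma adjusted p = 9.17e-07), or -5.09 and -4.27 with a pseudocount of 0.1. MLYCD, annotated on the same strand, shares 457 of the 5558 exonic bases of OSGIN1 and had 0.197 to 5.51 FPKM.

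**Figure D2:**
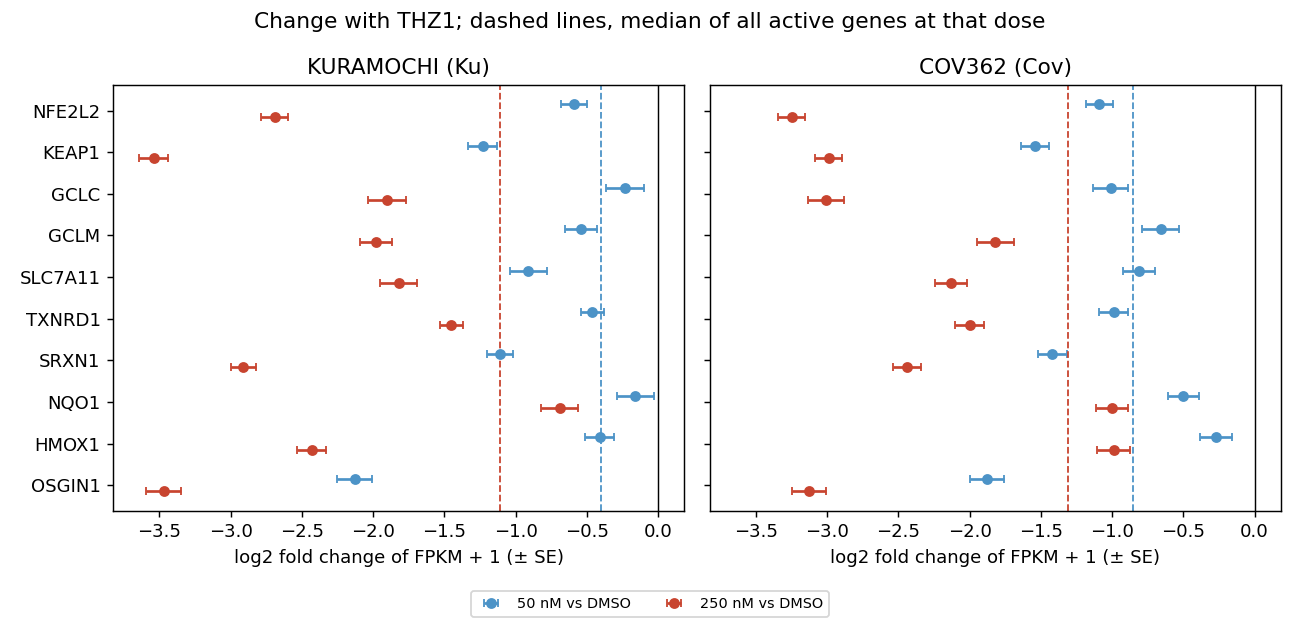
Log2 fold change of FPKM + 1 (x axis, limma estimate ± SE) of the 10 genes at 50 nM and 250 nM THZ1 against DMSO in Ku and Cov cells, with dashed lines at the median of all active genes. At 250 nM 9 of the 10 lie below that median in Ku cells and 8 in Cov cells, with NQO1 above it in both at 0.41 and 0.31. With a pseudocount of 0.1, 1 member lies above the median in each line. With equal median scaling NQO1 and TXNRD1 pass 0.

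On the deposited scale, the part of the fall already seen at 50 nM had different values among the genes. The log2 fold change at 50 nM, as a share of that at 250 nM, was 61.4% for OSGIN1 in Ku cells and 60.1% in Cov cells, but 49.1% and 51.1% with a pseudocount of 0.1, where SLC7A11 had 48.5% in Ku and SRXN1 56.3% in Cov cells. With the pseudocount of 1 it was 38% and 58% for SRXN1, and 34.7% and 51.5% for KEAP1. The shares for NFE2L2 were 22.1% and 33.4%, for GCLC 12.2% and 33.6%, and for HMOX1 16.7% and 27.2%, so the larger part of their log2 change lay between 50 nM and 250 nM. The ratio of the medians of all active genes was 36% in Ku and 65% in Cov cells, and each of the 10 shares in Cov cells lay below the latter. These shares were not tested. Under equal median scaling the 50 nM values of NFE2L2, GCLC and HMOX1 were positive in both lines, so such shares have no meaning there.

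**Figure D3:**
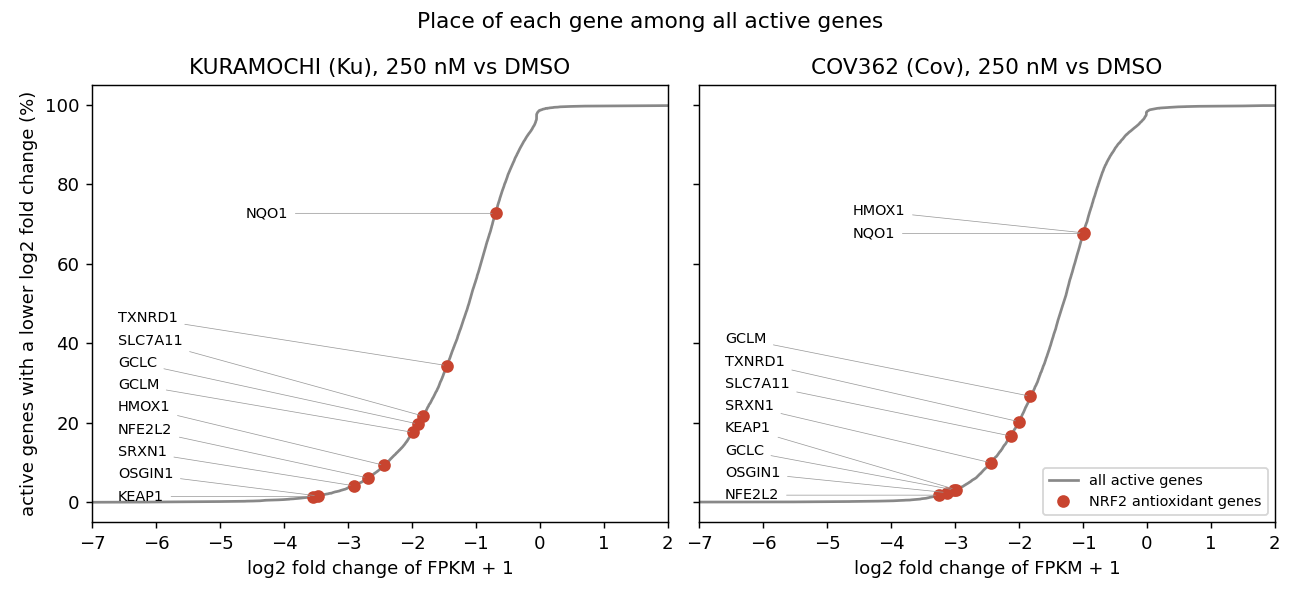
Position of each of the 10 genes among all active genes at 250 nM in Ku and Cov cells, by log2 fold change against DMSO and by the percent of active genes that fell more. At 250 nM NFE2L2 sits at 6.16% and 1.82% and NQO1 at 72.7% and 67.6%.

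Ordered by DMSO level per length, the Ku transcripts ran from TXNRD1 through NQO1, NFE2L2, GCLM, KEAP1, SRXN1, HMOX1, SLC7A11 and OSGIN1 to GCLC, and the libraries of NFE2L2 and GCLM and of HMOX1 and SLC7A11 overlapped. In Cov cells the order was TXNRD1, NQO1, NFE2L2, KEAP1, SRXN1, GCLC, SLC7A11, OSGIN1, GCLM and HMOX1, with OSGIN1 and GCLM overlapping. GCLM and GCLC thus held different places in the lines, with mean DMSO levels of 83.2 and 7.81 FPKM in Ku and 11.7 and 24.1 FPKM in Cov cells. HMOX1 stood at 19.9 FPKM in Ku and 1.73 FPKM in Cov cells. The tables of the lines were normalized separately, and the differences between lines were not tested. After 250 nM THZ1, NQO1 was the most abundant member in Ku cells, above TXNRD1 without overlap, while TXNRD1 remained first in Cov cells. TXNRD1 and NQO1 together made up 54.7% and 56.3% of the summed FPKM of the 10 genes in the Ku DMSO libraries and 79.9% and 78.3% at 250 nM. The corresponding values in Cov cells were 74.7% and 75.6%, and 89.3% and 88.7%.

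Ratios of members within a library do not depend on the factor by which that library was scaled. The pairs given here were chosen after their values were seen. The ratio of NQO1 to NFE2L2 mRNA was 1.95 and 2.16 in Ku cells with DMSO, 2.95 and 2.63 at 50 nM, and 9.47 and 7.99 at 250 nM. The Cov libraries gave 1.69 and 1.76, then 2.57 and 2.65, and then 9.09 and 8.71. The groups did not overlap in either line, and at 250 nM both Cov values lay between the 2 Ku values. The lines were not tested against each other. The ratio of TXNRD1 to NFE2L2 moved from 2.41 and 2.61 with DMSO to 6.42 and 6.10 at 250 nM in Ku cells, and from 5.47 and 5.70 to 14.4 and 14.4 in Cov cells. KEAP1 relative to NFE2L2 went from 0.542 and 0.558 with DMSO to 0.320 and 0.376 at 50 nM and 0.243 and 0.267 at 250 nM in Ku cells. The Cov ratios were 0.459 and 0.436, then 0.332 and 0.300, and then 0.446 and 0.546, so the 250 nM libraries there overlapped with DMSO. For the subunits of glutamate-cysteine ligase, the ratio of GCLM to GCLC was 10.9 and 10.4 in Ku cells with DMSO, 8.69 and 8.82 at 50 nM, and 15.1 and 14.8 at 250 nM. In the Cov libraries the ratio was 0.478 and 0.489, then 0.602 and 0.622, and then 1.14 and 1.33. Relative to GCLC, GCLM mRNA was above its DMSO ratio at 250 nM in both lines.

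**Figure D4:**
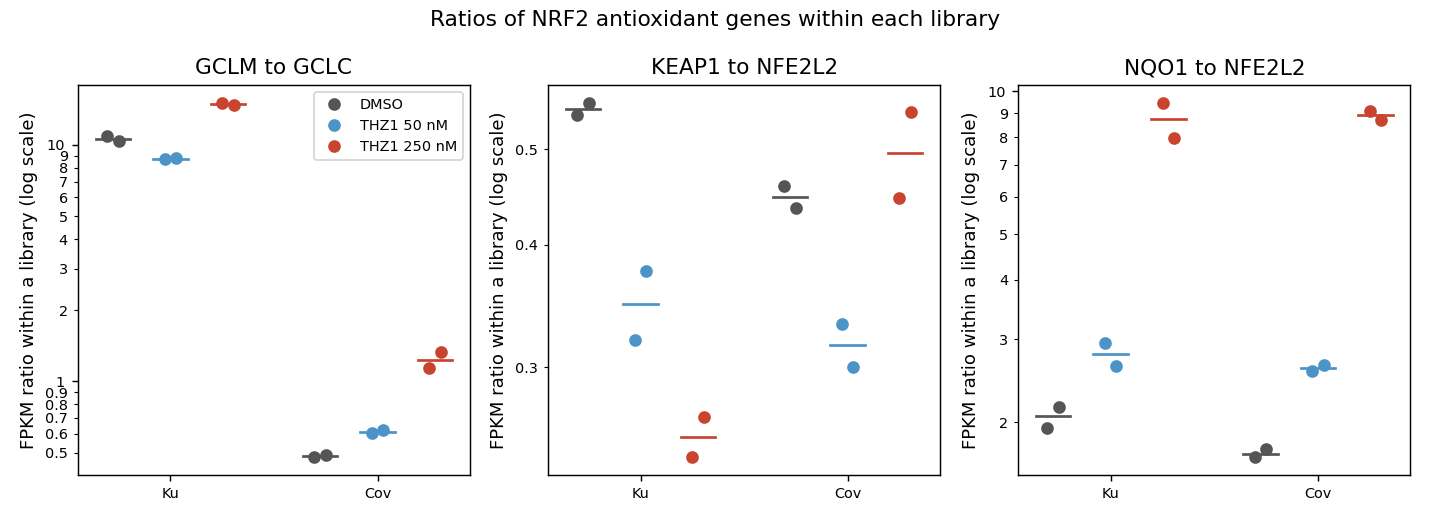
Ratios of FPKM within a library (log scale) for GCLM to GCLC, KEAP1 to NFE2L2 and NQO1 to NFE2L2 in Ku and Cov cells; each point is 1 library and each bar the mean of 2. NQO1 to NFE2L2 lies between 1.69 and 2.16 with DMSO and between 7.99 and 9.47 at 250 nM, and a single scaling factor per library leaves these ratios as they are.

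The direction of the members depends in part on how the libraries are scaled, because most active genes were lower with THZ1. With the deposited spike-in values, the median log2 fold change of all active genes at 250 nM was -1.11 in Ku and -1.31 in Cov cells, and it moved to 0.29 and 0.31 with equal median scaling and to 0.00 and 0.01 with a median-of-ratios scaling. The share of active genes called lower and higher at 250 nM went from 68.6% and 0.0491% to 11.6% and 26.9% in Ku cells under equal median scaling, and from 84% and 0.105% to 11.3% and 26.4% in Cov cells. With the median of ratios it was 19% and 11.1% in Ku and 18.9% and 8.57% in Cov cells. NFE2L2, KEAP1, SRXN1 and OSGIN1 were called lower at 250 nM in both lines under all 3 scalings, as was GCLC in Cov cells. Their log2 fold changes under equal median scaling were -0.78, -1.77, -1.10 and -2.33 in Ku cells and -1.25, -1.08, -0.53 and -1.71 in Cov cells. At 50 nM neither line had a member called lower under equal median scaling, and log2 fold changes above 0 then numbered 6 of 10 in Ku and 7 of 10 in Cov cells.

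**Figure D5:**
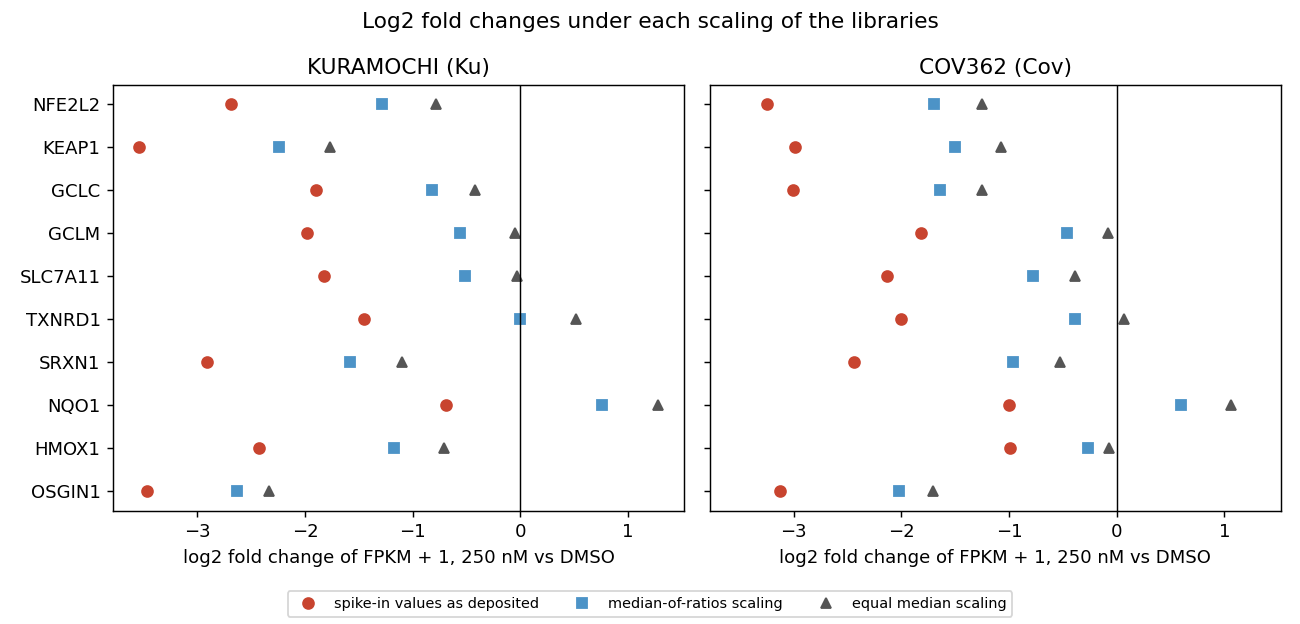
Log2 fold change of FPKM + 1 of the 10 genes at 250 nM against DMSO (x axis) in Ku and Cov cells with the spike-in values as deposited, with median-of-ratios scaling and with equal median scaling. OSGIN1 stays at -2.33 or below in Ku and -1.71 or below in Cov cells, while NQO1 moves from -0.69 to 1.28 and from -1 to 1.06.

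The other genes of the pathway were taken from a list of 49, of which 46 were active (all but GPX2, GGT1 and ABCC2). At 250 nM, 24 of the 46 passed the test as lower in Ku and 40 in Cov cells, below the background of 68.6% in the former and near that of 84% in the latter. Their median log2 fold changes were -0.70 and -0.94, beside -1.11 and -1.31 over all active genes and -2.20 and -2.29 for the 10 members. In Ku cells 13 of the 46 lay below the median of all active genes, and in Cov cells 12. At 50 nM, where the background was 11.3% in Ku and 70.5% in Cov cells, the counts were 3 in Ku and 27 in Cov cells. The Ku calls were lost without any 1 Ku library, and fewer Cov genes were called without either Cov DMSO library. The backgrounds are those of the full fit. None of the 46 was called higher by limma, and 0 had a positive change at an unadjusted p under 0.05; under equal median scaling 29 were called higher at 250 nM in Ku and 27 in Cov cells, beside 26.9% and 26.4% of active genes.

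By role, 5 of 8 regulators and small Maf partners were called lower in Ku cells at 250 nM, as were 6 of 10 active genes of glutathione synthesis, transport and use, 5 of 6 that supply NADPH, 3 of 6 of iron and heme handling, 4 of 12 active genes of detoxification and efflux, and 1 of 4 thioredoxin and peroxiredoxin genes. In Cov cells these counts were 8, 9, 5, 6, 9 and 3. The background was 68.6% of active genes in Ku and 84% in Cov cells, and with lists of 4 to 12 genes nothing is read from these shares.

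SESN2, the gene for the stress-induced protein sestrin 2, had the lowest log2 fold change of the 46 in Ku cells at 250 nM. Its FPKM was 9.06 and 7.83 with DMSO, 9.04 and 10.1 at 50 nM, and 0.579 and 0.704 at 250 nM, so that the libraries at 50 nM overlapped DMSO and those at 250 nM were far below (log2 fold change -2.52, limma adjusted p = 1.66e-05). In Cov cells SESN2 fell by 2.51 on the log2 scale (limma adjusted p = 2.27e-06). SLC3A2, which encodes the heavy chain that pairs with the SLC7A11 protein, followed SESN2 in Ku cells and CBR3 in Cov cells, with 150.5 and 143 FPKM in the Ku DMSO libraries and 30.2 and 32.9 at 250 nM, and 167 and 186 against 27.5 and 29.8 in Cov cells. Its log2 fold change was -2.18 in Ku (limma adjusted p = 6.59e-06) and -2.58 in Cov cells (limma adjusted p = 8.16e-07), and under equal median scaling it was -0.23 (limma adjusted p = 0.041) and -0.54 (limma adjusted p = 0.00176), called in neither line, whereas with median-of-ratios scaling it was -0.75 (limma adjusted p = 0.000267) and -0.99 (limma adjusted p = 0.000137), called lower in both. CBR1 and CBR3 encode carbonyl reductases. CBR1 came after SLC3A2 in Ku cells, where its log2 fold change was -2.05 (limma adjusted p = 8.2e-06) but -0.13 with equal median (limma adjusted p = 0.367) and -0.64 with median-of-ratios scaling (limma adjusted p = 0.00253), called in neither, and CBR3 had the lowest log2 fold change in Cov cells, with 29.97 and 32.1 FPKM with DMSO against 3.21 and 2.30 at 250 nM (log2 fold change -3.10, limma adjusted p = 1.03e-06). These ranks depend on the pseudocount of 1. By the share of the DMSO mean left at 250 nM, CBR3 was at 4.03% and SESN2 at 7.59% in Ku cells, and at 8.87% and 5.12% in Cov cells. CBR3 in Ku cells (0.155 and 0.116 FPKM) and SESN2 in Cov cells (0.222 and 0.450) were then near the low value many unexpressed genes share. That value was 0.0783 to 0.105 FPKM in the libraries at 250 nM.

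At the other end of the list, TXN, the gene for thioredoxin itself, had 408 and 370.0 FPKM in Ku cells with DMSO and 408 and 354 at 250 nM, and a log2 fold change of -0.03 (limma adjusted p = 0.749). The small Maf gene MAFF had 6.11 and 4.70 FPKM with DMSO and 5.21 and 7.13 at 250 nM in the Ku line, a log2 fold change of 0.16 (limma adjusted p = 0.461). Both signs rest on single libraries, since TXN was at 0.04 without Ku DMSO replicate 1 and at 0.07 without Ku 250 nM replicate 2, and MAFF at 0 and -0.03 without the second DMSO or 250 nM replicate. GSTA4, a glutathione transferase gene, had -0.20 in Ku (limma adjusted p = 0.412) and -0.52 in Cov cells (limma adjusted p = 0.00139), neither called. The other genes with the highest values in Cov cells were the aldo-keto reductase genes AKR1B10 at -0.46 (limma adjusted p = 0.024) and AKR1C2 at -0.50 (limma adjusted p = 0.0189), both under 1.9 FPKM in all Cov libraries and both with near-identical relatives between which reads can be split. TXN, GSTA4, AKR1B10 and AKR1C2 turned to positive values where named under both other scalings, and MAFF in Ku cells was then called higher, at 1.85 with equal median (limma adjusted p = 0.00014) and 1.40 with median-of-ratios scaling (limma adjusted p = 0.000485).

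The active genes whose changes over the 12 libraries were most like those of NFE2L2, by Euclidean distance of log2(FPKM + 1) from the DMSO mean of the line, were URGCP (distance 0.299), ACBD3 (0.338) and TOMM70A (0.394). URGCP had log2 fold changes of -2.78 in Ku and -3.38 in Cov cells at 250 nM, close to the -2.69 and -3.25 of NFE2L2. For HMOX1, the nearest were HOXA10 (0.366), ADM (0.639) and ARRDC4 (0.709). HOXA10 had -2.45 and -0.94 at 250 nM where HMOX1 had -2.43 and -0.99. The distances describe the 12 libraries only and carry no test.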

How the data were processed

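The authors sequenced polyA RNA of Ku and Cov cells as 12 libraries, 2 for each line and condition, from stranded mRNA preparations read as single ends of 75 bp. Per the labels and the study's methods, the authors used HISAT for alignment (hg19) and cuffquant with cuffnorm for FPKM, which they then normalized to ERCC spike-ins added to RNA normalized by cell count. The deposited values are FPKM, in 1 table per line normalized separately, and not counts, so a count test could not be used and the lines were not tested against each other. The depth is unknown. Columns not used numbered 0.

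ERCC rows (92 of 23713) were left out. Fits were made per line, in R 4.3.3, by limma 3.58.1 (eBayes with a mean-variance trend, two-sided, 3 groups of 2) on log2(FPKM + 1) of the active genes, with Benjamini-Hochberg adjustment, and the fit was tested on simulated data. The series calls the libraries of a condition biological duplicates without saying how they were made apart, and p-values measure the spread between these libraries only. Across genes, same-numbered replicates did not deviate together (correlations of their deviations between -0.07 and 0.028), so no block was used in the main fit. Such a correlation does not see a shift shared by all genes, and the labels do not say whether a number marks a batch. The genes named were the 10 members, the 3 lowest and 3 highest active genes of the wider list at 250 nM in each line, and the 3 genes nearest in pattern to NFE2L2 and HMOX1; the overlapping genes, the markers and TXN at 50 nM stand outside this rule. The members and lists were chosen with earlier results of these data known. The alternatives tried were: pseudocount 0.1, minimum FPKM 10 or none, equal median and median-of-ratios scaling, a fit of only the 2 groups compared, no trend, a replicate block, an adjusted p threshold of 0.05, a fold threshold of 1 on the log2 scale, and each library left out in turn. Positions and exons are from GENCODE 44 lifted to GRCh37, and promoters from RefSeq on GRCh38.p14. Python 3.11.15 and matplotlib 3.10.9 were used for figures.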

Additional observations from a re-analysis of the deposited data

Results flagged for a closer look

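TXN, the thioredoxin gene of the wider list, moved in opposite directions in the lines at 50 nM: its FPKM was 408 and 370.0 with DMSO and 463 and 429 at 50 nM in Ku cells, both treated libraries above both controls (log2 fold change 0.20, limma adjusted p = 0.124). In Cov cells it was 1048 and 1166 with DMSO and 826 and 948 at 50 nM, both below (log2 fold change -0.32, limma adjusted p = 0.027). Neither value was called, and the difference between the lines was not tested. With equal median and median-of-ratios scaling the Cov value became 0.90 and 0.71, so that the opposite directions were present, of these 3 scalings, only with the deposited spike-in values. No member of the 10 was so placed, and groups of 2 libraries are too small for a test of outlying samples.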

How the results depend on the processing

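With equal median scaling the log2 fold changes that turned positive in Ku cells were, at 50 nM, NFE2L2 0.10, NQO1 0.54, HMOX1 0.26, GCLM 0.16, GCLC 0.37 and TXNRD1 0.24; at 250 nM NQO1 1.28, TXNRD1 0.52, GSTA4 1.30 and TXN 1.95; and between the doses NQO1 0.74, TXNRD1 0.28 and SLC7A11 0.21. In Cov cells they were, at 50 nM, NFE2L2 0.12, NQO1 0.71, HMOX1 0.39, GCLM 0.42, GCLC 0.14, TXNRD1 0.23, SLC7A11 0.29 and TXN 0.90; at 250 nM NQO1 1.06, TXNRD1 0.07, GSTA4 0.91, AKR1C2 0.63 and AKR1B10 0.60; and between the doses NQO1 0.35. With median-of-ratios scaling they were, in Ku cells, at 50 nM NQO1 0.39, HMOX1 0.12, GCLM 0.01, GCLC 0.25 and TXNRD1 0.09, at 250 nM NQO1 0.76, GSTA4 0.90 and TXN 1.42, and between the doses NQO1 0.36; in Cov cells, at 50 nM NQO1 0.52, HMOX1 0.31, GCLM 0.26, TXNRD1 0.04, SLC7A11 0.12 and TXN 0.71, at 250 nM NQO1 0.60, GSTA4 0.59, AKR1C2 0.38 and AKR1B10 0.36, and between the doses NQO1 0.08.

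With equal median scaling, members called lower at 50 nM, at 250 nM and between the doses numbered 0, 4 and 3 in Ku cells (0.737%, 11.6% and 6.55% of active genes). In Cov cells they numbered 0, 5 and 2 (0.147%, 11.3% and 4.95%). With median-of-ratios scaling there was 1 in Ku cells at 50 nM (2.72%), and 0, 6 and 4 in Cov cells (0.772%, 18.9% and 7.92%). The 1 member called higher at 250 nM was NQO1, in both lines with equal median scaling (26.9% and 26.4% of active genes). With median-of-ratios scaling it was called higher in Cov cells only (8.57%). Of the wider list, 0 and 2 were called lower at 50 nM and 250 nM in each line with equal median scaling, and 0 and 3 in Ku and 0 and 4 in Cov cells with median-of-ratios scaling, while 29 and 27, and 16 and 17, were called higher at 250 nM in Ku and Cov cells, beside 26.9% and 26.4%, and 11.1% and 8.57%, of active genes.

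In Ku cells at 50 nM, members and wider list each gave 0 calls with no minimum FPKM or with only the 2 groups compared. Over all genes 3 and 9 were called lower in those settings. At an adjusted p under 0.05 members and wider list gave 6 each, beside 5734 of the 14251 active genes. Without the trend the wider list gave 1, beside 1159 active genes. With no minimum FPKM, 5 members were called between the doses in Ku cells, a count given here without its background. A log2 fold change beyond 1 left 1 and 12 of the wider list in Ku and 4 and 19 in Cov cells at 50 nM and 250 nM. In Ku cells at 50 nM it left 1228 of the 14251 active genes. The replicate block gave 17 wider genes in Cov cells at 50 nM and 3 members between the doses in Cov cells. It brought NQO1 at 250 nM in Ku cells to a limma adjusted p of 0.000203. The labels do not say whether the replicate numbers pair the libraries. Calls over all genes are given here only for Ku cells at 50 nM, so nothing is read from the other counts of this paragraph.

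Leaving out 1 library at a time gave ranges of 0 to 0 members at 50 nM, 9 to 9 at 250 nM and 4 to 8 between the doses in Ku cells, and 5 to 8, 10 to 10 and 4 to 8 in Cov cells. For the wider list the ranges were 0 to 0 and 17 to 23 in Ku and 4 to 24 and 29 to 41 in Cov cells at 50 nM and 250 nM. In Ku cells at 250 nM, TXN then ranged from -0.13 to 0.07 (0.04 and 0.07 without the libraries named in the report) and MAFF from -0.03 to 0.35 (0 and -0.03). The causes of these changes were not tested. For these fits, calls over all active genes are given only for Ku cells at 50 nM. Nothing is read from the other ranges of counts. With a pseudocount of 0.1 or a minimum FPKM of 10 no count over the members or the wider list moved by more than 1.5 times. The unknown depth and the 2 libraries per group limit what can be said of small changes and of HMOX1 in Cov cells.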
